A study of Mus musculus with 8 samples.

Results

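Creb1, Creb3l4, Taf7, Gtf3c6 and Ybx1 encode 2 CREB-family transcription factors, a subunit of TFIID, a subunit of TFIIIC and a Y-box protein. They were taken as every probe set whose single current symbol in the authors' deposited table is 1 of these 5 names, which gave 6 probe sets (2 for Taf7) of the 330 in that table, or 5 of its 247 named genes. The probe sets were thus chosen by measured values of this same study, since the table lists what passed the authors' own fold and p-value thresholds between these genotypes. The differences given for them are therefore a description and carry no test. The arrays measured RNA of forebrain microdissected at E9.5 from C57Bl/6 mouse embryos, 4 wild type and 4 VEGF120. VEGF120 mice were made by cDNA knock-in and have VEGF120 as the single isoform of the vascular growth factor VEGF-A, and lack its other isoforms. The labels do not say whether an array stands for an embryo, a litter or a pool, so the spread between arrays may be technical in part.

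Creb1 is the founding cyclic AMP response element binding protein, which binds the cyclic AMP response element (CRE) as a dimer of leucine zippers. When phosphorylated by protein kinase A or calcium-dependent kinases, it recruits the acetyltransferases CBP and p300. Creb3l4 belongs to the same leucine zipper family but is held in the endoplasmic reticulum membrane until cleaved, and is best known from testis and prostate. TFIID is the complex that recognises core promoters of RNA polymerase II genes, and Taf7 is the subunit that binds Taf1 and restrains its acetyltransferase activity. TFIIIC, to which Gtf3c6 belongs, recognises the internal promoters of tRNA genes for RNA polymerase III. Ybx1 is a cold shock domain protein that binds DNA and RNA, packages messenger RNAs, and was named for the Y-box, an inverted CCAAT element.

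Each array held 45101 probe sets, 45037 of them not controls. Values are MAS5 signals, linear intensities with each array scaled to the same trimmed mean of 250. Log2 values are log2(signal + 16), and every difference is VEGF120 minus wild type. The SE of a difference is the moderated SE from limma. It draws the spread of a probe set toward that of probe sets of like brightness. It therefore differs from an SE worked out from the SDs given beside it. Over all 8 arrays 27022 probe sets, these 6 among them, lay above a brightness filter placed at a signal of 36.9. Creb3l4 lay below that level in the wild type mean and passed through its VEGF120 arrays, and Creb1 passed through its wild type arrays. The median signal of an array was 56.1 to 59.6 in wild type and 62.3 to 68.5 in VEGF120. No marker of forebrain neuroepithelium, endothelium, erythroid cells, surface ectoderm or macrophages could be named (0 of 10, 0 of 7, 0 of 6, 0 of 5 and 0 of 4), so the tissue label was not checked here.

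Creb1 was lower in VEGF120. Its probe set, 1421582_a_at, gave signals of 30.2, 50.2, 83.3 and 99.4 on wild type arrays 1 to 4. On VEGF120 arrays 1 to 4 it gave 34.8, 29.8, 44.5 and 4.25. Wild type arrays 3 and 4 were highest and VEGF120 array 4 was far below all others. The groups overlapped, since wild type array 1 lay among the VEGF120 arrays. Mean log2 signals were 6.27 ± 0.60 (wild type) and 5.36 ± 0.70 (VEGF120), each ± SD with n = 4, so the genotypes differed by −0.91 ± 0.38 (SE), 1.87-fold. Without VEGF120 array 4 the difference was −0.57, and without both arrays numbered 4 it was −0.37, a setting chosen after the data were seen. The SD within genotypes was 0.65, at percentile 86.2 of 3151 probe sets of like brightness, whose median was 0.41. In bulk tissue, fewer cells of a type and less RNA per cell cannot be told apart for any of these genes.

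The Creb1 promoter is shown because Creb1 is known to regulate genes through the CRE, and it can be read for that element. The window is chr1:64532554-64532853 on the plus strand of GRCm38.p6 (RefSeq), from 250 bases before to 50 after the annotated start. It holds 69.0% G and C with 31 CG pairs, and has no match to any of the 6 motifs searched, which would stand in capitals.
Creb1: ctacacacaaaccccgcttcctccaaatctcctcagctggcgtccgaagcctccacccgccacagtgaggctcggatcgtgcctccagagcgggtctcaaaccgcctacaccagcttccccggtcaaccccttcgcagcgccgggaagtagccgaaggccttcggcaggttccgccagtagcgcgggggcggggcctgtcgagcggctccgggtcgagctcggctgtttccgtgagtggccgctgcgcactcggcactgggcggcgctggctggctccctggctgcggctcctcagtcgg

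Creb3l4 was the single member that was higher in VEGF120. Probe set 1424218_a_at gave signals of 9.43, 33.7, 9.51 and 30.4 on wild type arrays 1 to 4. The VEGF120 arrays gave 75.0, 60.3, 61.1 and 71.3 in the same order. Every VEGF120 array lay above every wild type array, and wild type arrays 1 and 3 were lowest. That was so for 3.22% of all probe sets tested (a share that depends on scaling, as described for the whole table). The authors' choice of this probe set favours such a separation, so nothing is read from it. Mean log2 signals were 5.13 ± 0.53 (wild type) and 6.37 ± 0.13 (VEGF120), each ± SD with n = 4, so the genotypes differed by 1.24 ± 0.29 (SE), 2.36-fold. On the linear scale the mean signals were 20.7 ± 13.1 and 66.9 ± 7.34 (SD, n = 4 each), a ratio of 3.23. Because the wild type signals are dim, the log2 difference depended on the value added before the logarithm: it was 1.86 with 1 added and 0.64 with 64 added.

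RefSeq annotates 3 starts of Creb3l4, all on the minus strand of GRCm38.p6, and the windows of starts 1 and 2 are shown since they carry CCAAT or Y-box letters. Start 1 lies in chr3:90243463-90243762, and start 2 in chr3:90243094-90243393. Capitals mark motif matches on either strand, with sequences read along the gene. Start 1 has CCAAT beginning 39 bases before the start and its reverse beginning 73 bases before. Start 2 has the CRE core TGACG beginning 222 bases before the start and the Y-box CTGATTGG beginning at base 1 of the transcript. The third window, not printed, has the CRE core reversed at 194 and 63 bases before its start.
Creb3l4 start 1: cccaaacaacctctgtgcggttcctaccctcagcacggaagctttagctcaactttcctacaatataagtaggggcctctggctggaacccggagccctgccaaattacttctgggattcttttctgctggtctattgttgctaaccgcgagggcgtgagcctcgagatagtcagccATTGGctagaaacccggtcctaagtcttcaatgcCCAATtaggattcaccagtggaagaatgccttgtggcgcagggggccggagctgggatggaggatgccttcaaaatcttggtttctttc
Creb3l4 start 2: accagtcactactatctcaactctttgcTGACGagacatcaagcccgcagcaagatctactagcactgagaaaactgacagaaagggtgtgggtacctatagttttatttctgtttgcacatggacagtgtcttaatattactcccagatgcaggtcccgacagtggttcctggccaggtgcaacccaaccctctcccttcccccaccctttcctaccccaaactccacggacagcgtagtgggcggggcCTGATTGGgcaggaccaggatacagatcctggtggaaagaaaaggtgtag

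**Figure D1:**
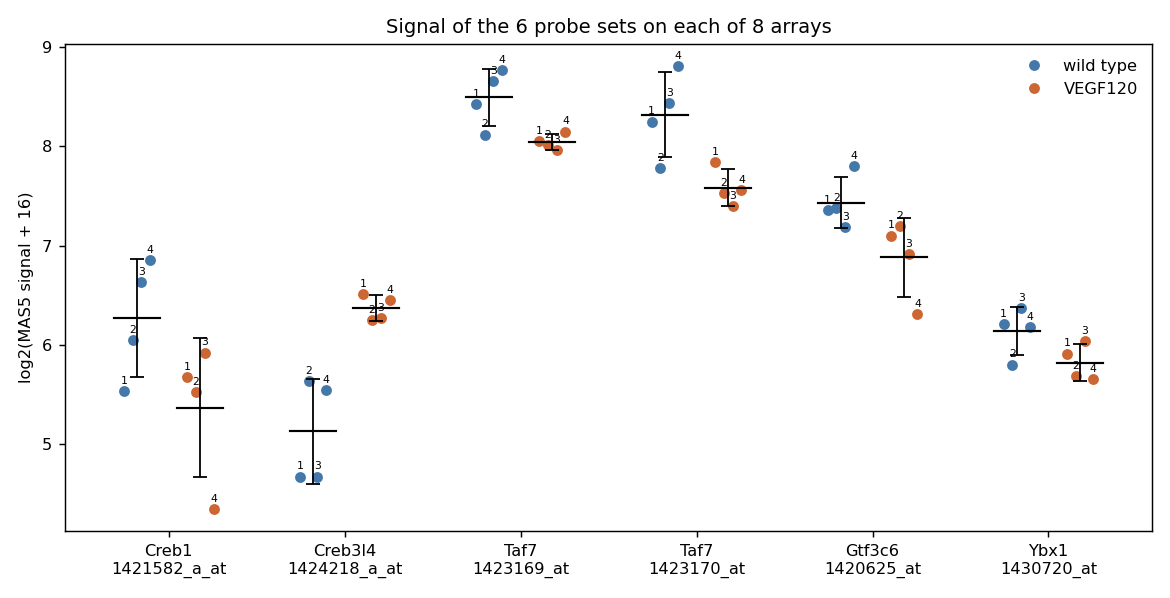
Log2(MAS5 signal + 16) of the 6 probe sets on each array, with wild type in blue and VEGF120 in orange; the small digits are array numbers, and black bars are the mean ± SD (n = 4 arrays each). Creb3l4 alone has groups that do not overlap, with VEGF120 at 6.37 ± 0.13 above wild type at 5.13 ± 0.53.

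Taf7 was lower in VEGF120 by both of its probe sets. The first, 1423169_at, gave signals of 329, 262, 389 and 421 on wild type arrays 1 to 4 and 249, 243, 233 and 267 on the VEGF120 arrays. The VEGF120 arrays were tightly spaced, and VEGF120 array 4 alone lay above a wild type array, array 2. The wild type mean was 8.50 ± 0.29 and the VEGF120 mean 8.04 ± 0.08 (log2, each ± SD with n = 4), and they differed by −0.45 ± 0.15 (SE), 1.37-fold.

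The second Taf7 probe set, 1423170_at, gave 288, 204, 332 and 432 in wild type and 214, 169, 153 and 173 in VEGF120. Here VEGF120 array 1 was the one above wild type array 2. The wild type mean was 8.32 ± 0.43 and the VEGF120 mean 7.58 ± 0.19 (log2, each ± SD with n = 4), and they differed by −0.74 ± 0.20 (SE), 1.67-fold. Both probe sets ranked the wild type arrays alike, 4 highest, then 3, 1 and 2. In VEGF120 the first ranked array 4 highest and the second array 1, while arrays 2 and 3 were the lowest by both. The log2 signal of the first probe set exceeded that of the second by 0.18 ± 0.16 in wild type and by 0.46 ± 0.17 in VEGF120 (SD, n = 4 each), so the probe sets gave unequal differences for 1 gene.

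Gtf3c6 was lower in VEGF120. Probe set 1420625_at gave signals of 148, 150.2, 130.1 and 206 on wild type arrays 1 to 4. The VEGF120 arrays gave 121, 130.9, 105 and 63.6. Wild type array 4 was highest and VEGF120 array 4 lowest, and the groups overlapped by a narrow margin between wild type array 3 and VEGF120 array 2. The wild type mean was 7.43 ± 0.26 and the VEGF120 mean 6.88 ± 0.40 (log2, each ± SD with n = 4), and they differed by −0.55 ± 0.21 (SE), 1.46-fold. The difference was −0.36 without VEGF120 array 4 and −0.24 without both arrays numbered 4.

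Of the Gtf3c6 windows, the first is shown because it holds the one TATA match among the members' promoters. It is chr10:40257663-40257962 on the minus strand of GRCm38.p6 (RefSeq), with TATAAA reversed, in capitals, beginning 192 bases before the start. The other annotated start lies close by, and its overlapping window has no match.
Gtf3c6 start 1: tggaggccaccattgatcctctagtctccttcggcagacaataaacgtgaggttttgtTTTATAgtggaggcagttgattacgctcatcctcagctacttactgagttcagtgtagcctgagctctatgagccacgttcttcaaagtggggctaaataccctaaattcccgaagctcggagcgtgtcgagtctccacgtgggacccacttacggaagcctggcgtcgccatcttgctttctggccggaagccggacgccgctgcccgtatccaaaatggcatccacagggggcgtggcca

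Ybx1 had the smallest difference of the 6 probe sets on the MAS5 scale, and was lower in VEGF120. Probe set 1430720_at gave signals of 58.1, 39.6, 66.9 and 56.5 in wild type. The VEGF120 arrays 1 to 4 gave 44.3, 35.1, 49.9 and 34.2. VEGF120 arrays 2 and 4 lay below all wild type arrays, whereas arrays 1 and 3 lay above wild type array 2. The wild type mean was 6.14 ± 0.24 and the VEGF120 mean 5.82 ± 0.19 (log2, each ± SD with n = 4), and they differed by −0.32 ± 0.23 (SE), 1.25-fold. The SD within genotypes was 0.22, at percentile 7.91 of 4503 probe sets of like brightness, whose median was 0.39. With 64 added before the logarithm the difference was −0.18.

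The Ybx1 promoter is shown for its repeated CCAAT boxes, the letters that Y-box proteins were named for in inverted form. The window is chr4:119294464-119294763 on the minus strand of GRCm38.p6 (RefSeq), with CCAAT, in capitals, beginning 135, 103 and 52 bases before the start. It holds 63.3% G and C and 32 CG pairs.
Ybx1: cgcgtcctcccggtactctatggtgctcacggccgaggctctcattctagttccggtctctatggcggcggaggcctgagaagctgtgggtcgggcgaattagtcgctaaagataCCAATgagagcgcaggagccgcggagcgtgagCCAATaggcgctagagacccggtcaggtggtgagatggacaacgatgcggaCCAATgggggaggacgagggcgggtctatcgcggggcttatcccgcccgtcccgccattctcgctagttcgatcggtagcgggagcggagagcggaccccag

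Of the 6 probe sets, 5 were lower and 1 was higher in VEGF120, with a median difference of −0.50, against a median of 0.04 over all 27022 probe sets, of which 57.2% had a positive difference. The authors' choice of probe sets makes this contrast likely, so nothing is read from it. Among the 120 listed probe sets above the filter, 28 were higher and 92 lower, with a median of −0.43. In the fit over all 27022 probe sets, 0 of them (0%) passed an adjusted p of 0.05 by limma, and the smallest adjusted p was 0.465. At an unadjusted p under 0.05 it gave 1714 higher (6.34%) and 924 lower (3.42%), and the methods' unpaired test run on the same values gave 1429 higher and 817 lower, with 0 past adjustment. That split depended on scaling: after quantile normalization limma gave 1167 higher and 1134 lower, and after median centring, which moves every difference down by 0.12 (log2), 602 higher and 3099 lower. The arrays of the groups did not overlap for 869 probe sets higher in VEGF120 (3.22%) and 482 lower (1.78%). This balance turned with scaling too, to 525 higher and 633 lower after quantile normalization and to 276 higher and 1908 lower after median centring. Among the members, 1 did so higher (Creb3l4) and 0 lower, and nothing is read from this, since their choice favours separation.

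**Figure D2:**
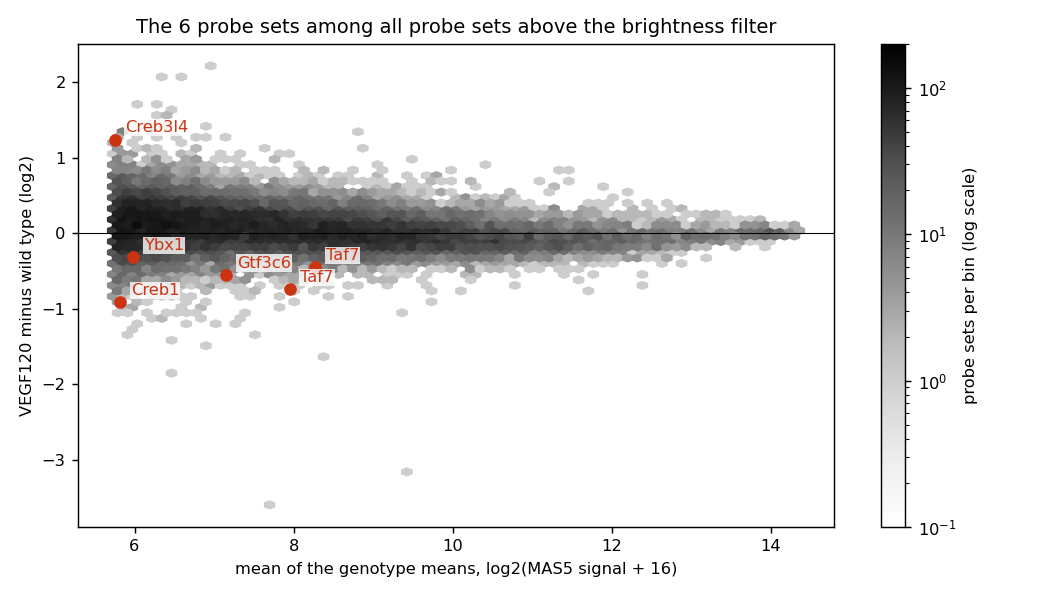
Difference between genotypes (log2, VEGF120 minus wild type) against mean log2(MAS5 signal + 16) for the 27022 probe sets above the brightness filter, shaded by their number per bin on a log scale, with the 6 probe sets in red. Creb3l4 at 1.24 and Creb1 at −0.91 lie at the dim end, where the median SD within genotypes of like-bright probe sets was 0.42 and 0.41. Both Taf7 probe sets, at −0.45 and −0.74, lie further right, where it was 0.21 and 0.22.

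A few arrays held the extreme values of several members. Wild type array 4 was the highest of its group for 4 of the 6 probe sets, and VEGF120 array 4 the lowest of its group for 3. Averaged over the 5 lower probe sets, wild type array 4 deviated from its group mean by 0.35 and wild type array 2 by −0.31 (log2). VEGF120 array 4 deviated by −0.34, and the other VEGF120 arrays by 0.05 to 0.18. VEGF120 array 4 also had the highest ratio of 3′ to 5′ β-actin signal, a measure of RNA quality, at 0.69 on the log2 scale against 0.30 to 0.43 on the other arrays. Its ratio for Gapdh was −0.04 against −0.37 to −0.26. Without that array the Creb1 and Gtf3c6 differences were smaller, as given above, and that of the first Taf7 probe set was larger, at −0.49 beside −0.45. Without wild type array 4, whose β-actin ratio was the lowest, Creb1 differed by −0.71 and Gtf3c6 by −0.43. The part of RNA quality in the differences was not tested.

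The authors' deposited table gives the same directions from PLIER signals, another summary of the probes. The members were selected by those PLIER values, which makes a shared direction likely, so nothing is read from it. In the authors' deposited table Creb1 was 1.58-fold lower, Ybx1 and the second Taf7 probe set 1.59-fold lower, the first Taf7 probe set 1.52-fold lower, Gtf3c6 1.51-fold lower and Creb3l4 1.52-fold higher. The authors' deposited table starts at 1.5-fold, so the folds of the members lie near its lower limit. By fold, Gtf3c6 ranks 189 and the first Taf7 probe set 178 of 191 lower probe sets, and Creb3l4 ranks 127 of 139 higher ones. Creb1 at 137, the second Taf7 probe set at 135 and Ybx1 at 132 of 191 lie further from the end. The unpaired p-values in the authors' deposited table, not adjusted, run from 0.00443 for the first Taf7 probe set to 0.0492 for Creb3l4. The log2 differences in the authors' deposited table lay between −0.67 and −0.59 for the 5 lower probe sets and at 0.61 for Creb3l4. On the MAS5 scale the 5 ran from −0.91 to −0.32 and Creb3l4 was at 1.24. For Creb3l4 the MAS5 difference was 2.05 times the one in the authors' deposited table, and for Ybx1 it was 0.477 times. The Creb3l4 gap depended on the value added before the logarithm: with 64 added the MAS5 difference was 0.64, beside 0.61 in the authors' deposited table. The authors' deposited table places the genes in bands 1 C2 (Creb1), 3 F1 (Creb3l4), 10 B1 (Gtf3c6) and 4 D1 (Ybx1).

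**Figure D3:**
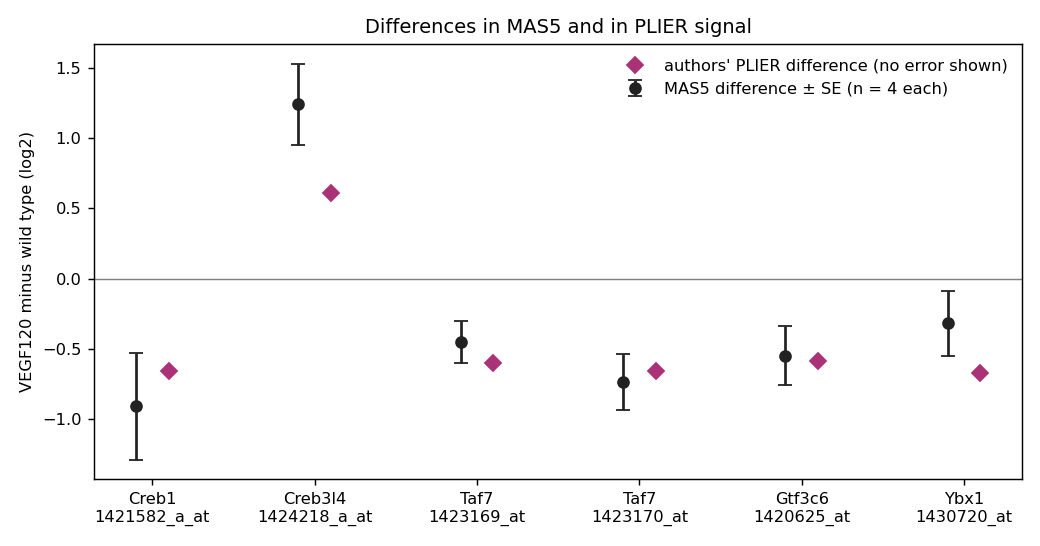
Difference between genotypes (log2, VEGF120 minus wild type) for each probe set. Circles show MAS5 signal with the moderated SE from limma (n = 4 arrays each). Diamonds show the PLIER signal of the authors' deposited table, without an error. Both have the same sign for every probe set, which selection by the PLIER values makes likely. They lie furthest apart for Creb3l4 at 1.24 and 0.61.

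The direction of each member was kept under the 90 alternative values computed. The members were chosen for a difference between these genotypes in this same study. That choice makes a kept sign likely, so nothing is read from it. For Creb1 they ran from −1.42 with 1 added before the logarithm to −0.37 without both arrays numbered 4. Taf7 ran from −0.58 to −0.36 for the first probe set and from −0.92 to −0.57 for the second. Quantile normalization removes the higher median signal of VEGF120 arrays. It gave −0.995 for Creb1, 1.14 for Creb3l4, −0.49 and −0.79 for Taf7, −0.66 for Gtf3c6 and −0.44 for Ybx1.

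**Figure D4:**
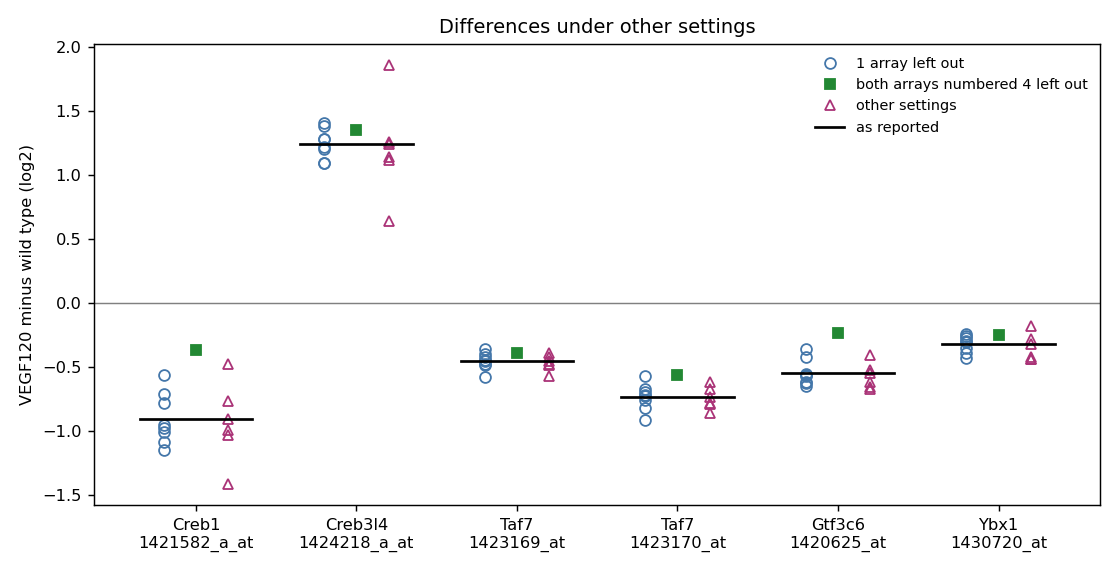
Difference between genotypes (log2, VEGF120 minus wild type) for each probe set as reported (black line), with 1 array left out (circles), with both arrays numbered 4 left out (squares) and under other settings (triangles). No value crosses 0, which the choice of members makes likely. The widest ranges belong to Creb1 (−1.42 to −0.37) and Creb3l4 (0.64 to 1.86).

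The named genes whose arrays looked most like each member were found by the root mean square difference of log2 signals, each taken from its own mean over the 8 arrays, among 94 other named genes above the filter. All of these come from the authors' list, so they share the contrast that chose the members. Nearest to Creb1 were Eri2 (0.25), Vamp3 (0.38) and Dcun1d1 (0.42), where the median of all candidates was 0.73. Nearest to Creb3l4 were the homeobox genes Alx1 (0.26) and Dlx1 (0.35), with a median of 0.94. Nearest to Taf7 were Ptn, Hbs1l and Orc4, each at 0.15 with a median of 0.35. Gtf3c6 lay nearest to D13Ertd212e (0.17), the orphan nuclear receptor gene Nr6a1 (0.23) and Zfand5 (0.24), with a median of 0.45. Ybx1 lay nearest to the origin recognition subunit gene Orc4 (0.12) and to Ptn (0.14), with a median of 0.43. Orc4 and Ptn, a secreted growth factor gene, were thus near both Taf7 and Ybx1.

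Of 6 head mesenchyme markers 3 could be named, and these 3 were in the authors' list as higher in VEGF120, as Creb3l4 was. That selection makes their direction likely, and a marker outside the list could not have been named, so they do not stand for the whole marker list. Prrx1 differed by 0.76, Alx1 by 1.05 and Six2 by 0.70 (log2). Their summed signal was 590 to 943 on wild type arrays and 1120 to 1580 on VEGF120 arrays. Twist1, Pdgfra and Col1a2, the other 3, were not analysed here. The part of head mesenchyme in the Creb3l4 difference was not tested.

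The relatives of the members were named rarely, since names come from the authors' list alone. Of 16 CREB and ATF leucine zipper factors, 2 were named, Creb1 lower and Creb3l4 higher. Of 12 CREB co-activators and kinases, 16 CREB target and immediate early genes and 16 endoplasmic reticulum and Golgi stress genes, 0 were named. Taf7 was the one named of 18 TFIID subunits, and 0 of 18 other RNA polymerase II general factors were. Gtf3c6 was the one named of 25 RNA polymerase III factors and subunits. An unnamed relative is not shown to be equal between genotypes: it was either not in the list or not analysed here.

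Ybx1 and Lin28a were the 2 named of 9 cold shock domain proteins. Lin28a, an RNA-binding protein that blocks maturation of let-7 microRNAs, is given because its list held so few named genes, and was chosen after its values were seen. Its wild type mean was 8.41 ± 0.18 and its VEGF120 mean 8.32 ± 0.30 (log2, each ± SD with n = 4), and they differed by −0.08. In the authors' deposited table it was 1.78-fold lower. A further probe set with the cold shock domain in the deposited enrichment output carries 2 symbols and is left unnamed, and it went the other way. It lay below the brightness filter, with means of 4.90 ± 0.45 in the wild type and 5.93 ± 0.66 in VEGF120 arrays (log2, each ± SD with n = 4), a gap of 1.03, and was 1.87-fold higher in the authors' deposited table.

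The authors' deposited enrichment output, made with DAVID on the same list, groups annotation terms into 75 clusters. All 6 probe sets fall in its cluster 7, transcription regulation, with an enrichment score of 2.22 and 39 probe sets, of which the authors' deposited table has 18 higher and 21 lower. On the MAS5 scale 25 of these lay above the filter, 7 higher and 18 lower, with a median difference of −0.50. The whole list had 139 probe sets higher and 191 lower in the authors' values. Its 120 above the filter had 28 higher and 92 lower on the MAS5 scale, with a median of −0.43. Nothing is read from the split of a cluster. Creb1 and Creb3l4, in opposite directions, share cluster 3, spermatogenesis, with a score of 2.52 and 14 probe sets. Ybx1 falls in cluster 9, the cold shock domain, with a score of 2.1; the authors' deposited table has 1 of its 4 probe sets higher and 3 lower. Creb1 and both Taf7 probe sets fall in cluster 32, nucleoplasm part, with a score of 0.771.

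Motif letters were searched on both strands of all 32851 RefSeq promoter windows of 300 bases, from 27025 genes, as a description of the members' windows. The CRE, TGACGTCA, stands in 1.79% of windows and in none of the members' windows. Its core TGACG, which every CRE contains, stands in 20.8%, Creb3l4 included. The Y-box CTGATTGG, which contains CCAAT reversed, stands in 4.1%, Creb3l4 included, and CCAAT itself in 37.4%, Creb3l4 and Ybx1 included. TATAAA stands in 13.6%, and TGACGTGG, the form known to be bound by CREB3-type factors, in 0.676%.

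Among the 160 listed genes with a window, 9 (5.62%) held the CRE, against 2.54% of protein-coding genes. A gene was counted if any of its windows held the letters, and the number of starts per gene was not matched. Of those 9 genes, the authors' deposited table has 3 higher and 6 lower. Its whole list has 139 probe sets higher and 191 lower. The Y-box was held by 17 (10.6%), against 5.59% of protein-coding genes, with 7 higher and 10 lower in the authors' deposited table. The CREB3-type form was held by 2 (1.25%), against 0.823%. The shares of the other motifs were 30.0% against 26.2% for the CRE core, 43.8% against 42.3% for CCAAT and 17.5% against 14.8% for TATAAA. Nr6a1, near Gtf3c6 in its arrays, held the CRE. Dcun1d1, near Creb1, and Hbs1l, near Taf7, held the CREB3-type form. Median G and C content was 57.2% in listed windows and 56.3% in protein-coding ones, and none of these shares was tested.

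**Figure D5:**
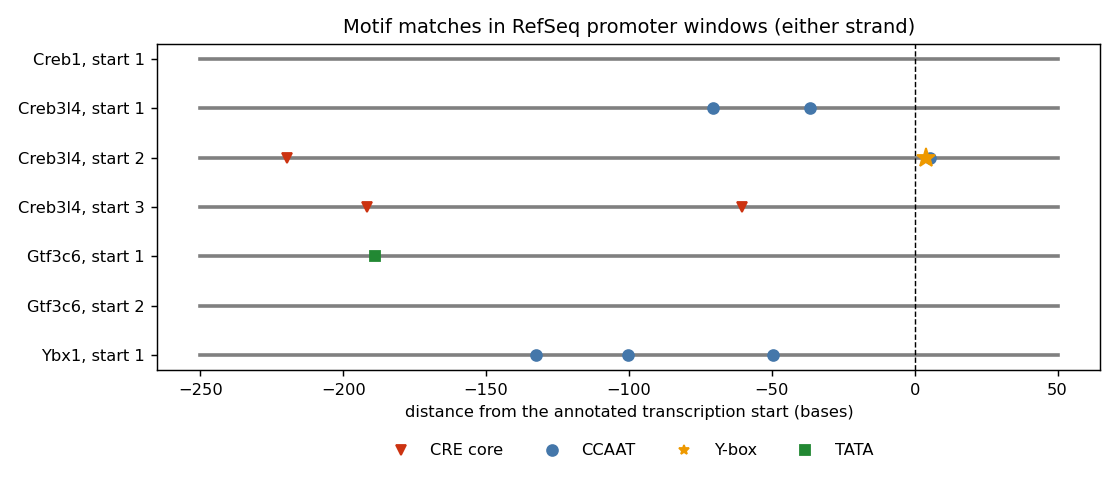
Positions of motif matches on either strand in the RefSeq windows of 4 of the 5 genes, with the horizontal axis in bases from the annotated start (dashed line) and 1 grey line per window. Ybx1 has 3 CCAAT matches, between 135 and 52 bases before its start, and Creb1 has no match.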

How the data were processed

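Forebrain RNA was measured on 8 Affymetrix mouse GeneChips, 4 of each genotype. The submitters' processing notes name MAS5 and Affymetrix Expression Console for the deposited intensity values, without versions. The authors' deposited table of 330 probe sets holds unsigned folds (ratio), unadjusted p-values and log2 group means from PLIER with quantile normalization over 3 coded groups, listing p-values of at most 0.05 and folds from 1.5 upward, as the file headers state. The deposited DAVID output, which gives a score per cluster, has a heading that spells out the codes of both genotypes. Another 12 columns of per-array values match no sample label and were not used. Gene names came from that table: 251 probe sets have 1 symbol, 13 several and 66 none, and 219 matched a RefSeq table by Entrez identifier, changing 27 symbols. Signals were taken as log2(signal + 16), which gave smaller differences for the dim members than adding 1, and larger ones than adding 64. The test left out 64 controls and everything under the 40th percentile of the mean. Limma 3.58.1 (R 4.3.3; lmFit, eBayes with an intensity trend) compared genotypes, with Benjamini-Hochberg adjustment. The fit was tested on simulated data. Python 3.11.15, pandas 2.3.3 and matplotlib 3.10.9 were also used. No pair of arrays shared more than 0.00443% of its values exactly. The number of arrays limits the precision.

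The members and gene lists were chosen with earlier results of these data known. The naming rule takes every probe set of the 5 genes, for each gene the 3 named genes most like it over the arrays, with the brightest probe set standing for a gene, and of each family list its members at the smallest p; some genes it gave are not reported here. Promoters of 4 of the 5 genes were matched in RefSeq by symbol (GRCm38.p6). Alternatives changed the value added, scaling, filter, variance model, array weights, replicate block and the arrays included. Array numbers were checked for pairing: deviations from group means correlated by −0.13, −0.03, 0.11 and −0.06 for numbers 1 to 4. No strong shared effect of a number was seen, which does not exclude pairing.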

Additional observations from a re-analysis of the deposited data

How the results depend on the processing

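All 90 alternative values of the 6 differences kept their sign, which the choice of members makes likely. The mean of the Taf7 probe sets differed by −0.595. Adding 1 gave 1.86 and adding 64 gave 0.639 for Creb3l4. Median centring lowers the VEGF120 arrays, whose median signal was higher. It gave 602 probe sets higher and 3099 lower at an unadjusted p under 0.05, and 276 higher and 1908 lower without overlap. Quantile normalization gave 525 higher and 633 lower without overlap. The 60th percentile filter, with fewer probe sets tested, gave 1137 higher at an unadjusted p under 0.05 and 535 higher without overlap. Leaving out both arrays numbered 4 gave 1126 higher and 484 lower at an unadjusted p under 0.05, and 1905 higher and 1138 lower without overlap. Leaving out 1 array at a time gave 0 to 1 probe sets past adjustment (1 without VEGF120 replicate 1) and 1143 to 1952 higher and 502 to 1285 lower at an unadjusted p under 0.05 (502 without wild type replicate 4 and 510 without replicate 3). It gave 1160 to 1940 higher and 695 to 1108 lower without overlap, where fewer arrays overlap less by construction. For the remaining shifts the cause was not tested. Leave-one-out differences ran from −1.15 to −0.565 for Creb1, 1.09 to 1.41 for Creb3l4, −0.579 to −0.362 and −0.917 to −0.574 for Taf7, −0.654 to −0.359 for Gtf3c6 and −0.435 to −0.243 for Ybx1. The replicate block gave 0 calls past adjustment, with 1593 higher and 765 lower at an unadjusted p under 0.05. It left the differences equal, as it must when each block holds 1 array of each genotype. Counts of the family lists at an unadjusted p under 0.05 were not run, since nearly all their named genes are the members. Creb3l4, Creb1 and Ybx1 lay nearest the brightness filter, at percentiles 40.5, 42.0 and 45.7 of mean signal, so signal over background limits them most.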
